A study of Mus musculus with 18 samples.

Results

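The genes described here are 10 cytosolic aminoacyl-tRNA synthetases of the mouse, Nars, Aars, Gars, Wars, Sars, Yars, Tars, Eprs, Iars and Lars. They were chosen by symbol with their counts in these libraries already known, and each matched 1 of the 39017 Ensembl identifiers of the deposited gene tables. Newer annotations add a 1 to most of these symbols (Nars1, for example). The RNA came from ribosomes of entorhinal cortex layer II neurons, recovered by translating ribosome affinity purification (TRAP), in which tagged ribosomes of a chosen cell type are captured with the mRNA they carry. In the silencing experiment 4 mice had received a vector with mCherry and a short hairpin RNA against Ptbp1 (labelled Ptbp1_shRNA), and 5 mice a vector with mCherry and a scrambled hairpin (Scrambled_shRNA). For overexpression, 5 mice had received a vector with mCherry and Ptbp1 (PTBP1 OE), and 4 mice a control vector with mCherry (control OE). Each library was 1 mouse, with its left and right entorhinal cortices pooled. The authors left out 1 mouse of the Ptbp1 shRNA group and 1 of the control vector group because no mCherry reads were found. For age, sex, strain, the line that carries the tagged ribosomes and the promoters of the vectors, nothing is given in the sources used here. The tissue label of all 18 libraries reads hippocampus, whereas the title and the design name the entorhinal cortex.

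An aminoacyl-tRNA synthetase joins an amino acid to its matching tRNA, the step that gives the ribosome its substrates and sets which amino acid each codon calls for. In animals some cytosolic synthetases act free in the cytosol, and others, Eprs, Iars and Lars among those described here, are held in a multi-synthetase complex by scaffold proteins. Many cytosolic synthetase genes are known targets of the transcription factor ATF4, which is made when a kinase phosphorylates the translation factor eIF2 and which also raises amino acid synthesis and import. Neurons are sensitive to loss of this function: human mutations in the glycyl- and tyrosyl-tRNA synthetases cause Charcot-Marie-Tooth neuropathy, and an editing defect of the alanyl enzyme in the sticky mouse leads to loss of Purkinje cells. Ptbp1, the gene manipulated in both experiments, encodes an RNA-binding protein that represses many exons.

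The promoters of the 10 genes were searched for the core of the C/EBP-ATF response element, the sequence that ATF4 dimers are known to bind. The choice of genes did not read promoter sequences, but it was made with the counts known. Since many synthetase genes are known ATF4 targets, the matches are not independent of that choice. The motif searched was TGATGCAA on either strand (TTGCATCA on the other), in RefSeq windows on build GRCm38.p6 that run from 250 bases before to 50 bases after a gene's start. A window was found for 7 of the 10 genes, and 4 of these 7 held the motif, against 294 of all 32851 windows (0.895%). The matches of 3 of them, Iars, Tars and Yars, are shown on the gene's strand with the motif in capitals and 11 bases on each side.
Iars: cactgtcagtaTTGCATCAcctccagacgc
Tars: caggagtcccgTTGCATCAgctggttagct
Yars: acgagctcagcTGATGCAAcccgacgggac

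The Tars match lies 15 to 8 bases before the start of the gene (window shown chr15:11399655-11399684, minus strand). The Iars and Yars matches lie just after the start, at bases 8 to 15 (chr13:49682126-49682155, plus strand) and at bases 4 to 11 (chr4:129189895-129189924, plus strand). With the sixth base left free (TGATGNAA, which includes the motif above), 1304 windows (3.97%) matched, among them 5 of the 7 synthetase windows, with Gars added. Its match is printed because it differs from those shown above at the free base.
Gars: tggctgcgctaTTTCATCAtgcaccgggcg

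The Gars window shown is chr6:55037960-55037989 on the plus strand, and the match ends 23 bases before the start. Neither motif was found in the 6 windows of other cytosolic synthetases or in the 14 windows of mitochondrial synthetases. The first motif was also in 4 of 16 windows of amino acid supply genes, in 4 of 14 of regulators of the ATF4 pathway and in 1 of 10 of endoplasmic reticulum chaperone genes, so it was not restricted to the synthetases. The supply and regulator lists were chosen as genes of that pathway, so their matches are not an independent result. Neither are those of the 10 synthetases, which were chosen with their counts known. Whether genes with a match differed in level from those without was not tested. A match describes the letters of these windows only, and no binding was measured.

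The libraries of the 2 experiments differed in how many exon bins were empty. Gene counts ranged from 34339355 to 42057400 in the Ptbp1 shRNA libraries and from 35750561 to 46544178 in the scrambled shRNA libraries. They ranged from 21454440 to 39056655 in the Ptbp1 overexpression libraries and from 18288627 to 26325826 in the control vector libraries. Of the exon bins with a mean count of at least 50 over all 18 libraries, 1.24% to 8.3% had no read in a Ptbp1 shRNA library and 1.54% to 7.61% in a scrambled shRNA library, against at most 0.0551% in any overexpression experiment library. The highest shares were those of 2 libraries, Ptbp1 shRNA replicate 2 (8.3%) and scrambled shRNA replicate 5 (7.61%). The biological coefficient of variation estimated by edgeR was 90.1% in the silencing and 22.3% in the overexpression experiment. Levels are CPM, gene counts relative to the TMM-scaled library size. Ptbp1 itself had 0.101 to 13.1 CPM in Ptbp1 shRNA libraries and 0.349 to 9.11 CPM in scrambled shRNA libraries, a difference of -0.18 on the log2(CPM + 0.5) scale (exact two-sided permutation test, p = 0.921), so the hairpin's effect on its target was not detectable in these counts. The sign of that difference was not stable: leaving out Ptbp1 shRNA replicate 4 gave -0.93, leaving out replicate 2 of that group gave 0.56, and the edgeR log2 fold change was 0.31. In the overexpression experiment Ptbp1 had 118 to 158 CPM with the Ptbp1 vector and 9.96 to 17.2 CPM with the control vector, a difference of 3.34 (exact permutation p = 0.0159, the smallest that 5 against 4 libraries allow). Excitatory neuron markers summed to 31200 to 63500 CPM in Ptbp1 shRNA and 57600 to 72000 CPM in scrambled shRNA libraries, and all 7 were above 0 in every library of both groups. Most of that sum was Snap25, a gene of all neurons (28500 to 61200 CPM in Ptbp1 shRNA and 54100 to 69000 CPM in scrambled shRNA libraries). The other 6 markers summed to 1560 to 2710 CPM in Ptbp1 shRNA and 3060 to 4610 CPM in scrambled shRNA libraries, most of it Camk2a. Microglia markers summed to 0.056 to 3.77 CPM in Ptbp1 shRNA and 2.67 to 19 CPM in scrambled shRNA libraries, with Tmem119, Cx3cr1, Aif1, C1qa and Itgam at 0 in some libraries of both groups. The gene set chosen as hippocampal markers summed to 20.1 to 45.3 CPM in Ptbp1 shRNA and 28.8 to 58.6 CPM in scrambled shRNA libraries, with Fibcd1, Tdo2 and Amigo2 at 0 in some libraries of both groups. Most of that sum was Wfs1, with means of 18.3 CPM in Ptbp1 shRNA and 26 CPM in scrambled shRNA libraries. The region of origin is therefore not read from this sum.

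Most of the synthetases had higher mean levels with the Ptbp1 shRNA than with the scrambled shRNA. Of the 10 genes, all of which passed the filter on low counts, 8 had a positive and 2 a negative fitted log2 fold change, with a median of 0.89 over the list against 0.03 over the 14656 genes tested (51.2% of which were positive). In 4 genes (Nars, Aars, Sars and Lars) the fitted level was at least 2-fold higher, where 15.2% of all genes were at or above that fold. Lars was below that fold when Ptbp1 shRNA replicate 2 was left out (0.56). These values are a description, since the genes were chosen with them known, and no p is given for them. The summed level of the 10 genes was 884 ± 93.5 CPM in Ptbp1 shRNA libraries (773 to 983, SD, n = 4) and 501 ± 52.5 CPM in scrambled shRNA libraries (442 to 546, n = 5), and the groups did not overlap. Much of that difference came from Nars (mean 358 CPM with the Ptbp1 shRNA and 142 CPM with the scrambled shRNA) and Aars (99.2 and 22.4 CPM). Eprs and Iars had lower means with the Ptbp1 shRNA, so the sum does not describe every gene of the list.

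Nars, the asparaginyl-tRNA synthetase gene on chromosome 18, had the smallest standard error of the 10. It had 343, 334, 397 and 357 CPM in the 4 Ptbp1 shRNA libraries and 124, 117, 161, 184 and 126 CPM in the 5 scrambled shRNA libraries. Every Ptbp1 shRNA library was above every scrambled shRNA library. The log2 fold change was 1.33 (SE 0.21, 95% interval 0.88 to 1.77), and 10% of all genes tested had a higher one.

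Aars, which charges alanine (chr8:111033144-111057664, plus strand), had the highest fold change of the 10. Its levels were 74.4, 125, 65.4 and 132 CPM in Ptbp1 shRNA libraries and 39.8, 15, 8.92, 28.6 and 19.9 CPM in scrambled shRNA libraries. The groups did not overlap, although the scrambled shRNA libraries differed among themselves with a coefficient of variation (CV) of 53.8%. The log2 fold change was 2.15 (SE 0.44, interval 1.20 to 3.09). The 3′ part of the Aars gene model overlaps Exosc6 on the same strand, so reads there could have been counted for either.

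Sars, which charges serine and also the selenocysteine tRNA (chr3:108424865-108445209, minus strand), had 32.6, 52.6, 57.1 and 19.9 CPM in Ptbp1 shRNA libraries and 18.3, 16.6, 12.5, 13.9 and 10.4 CPM in scrambled shRNA libraries. The lowest Ptbp1 shRNA library was just above the highest scrambled shRNA library, and the log2 fold change was 1.50 (SE 0.43, interval 0.57 to 2.42). Nars, Aars and Sars were thus 3 of the 10 genes whose groups did not overlap with the Ptbp1 shRNA higher, where 351 of 14656 genes (2.39%) had that pattern.

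**Figure D1:**
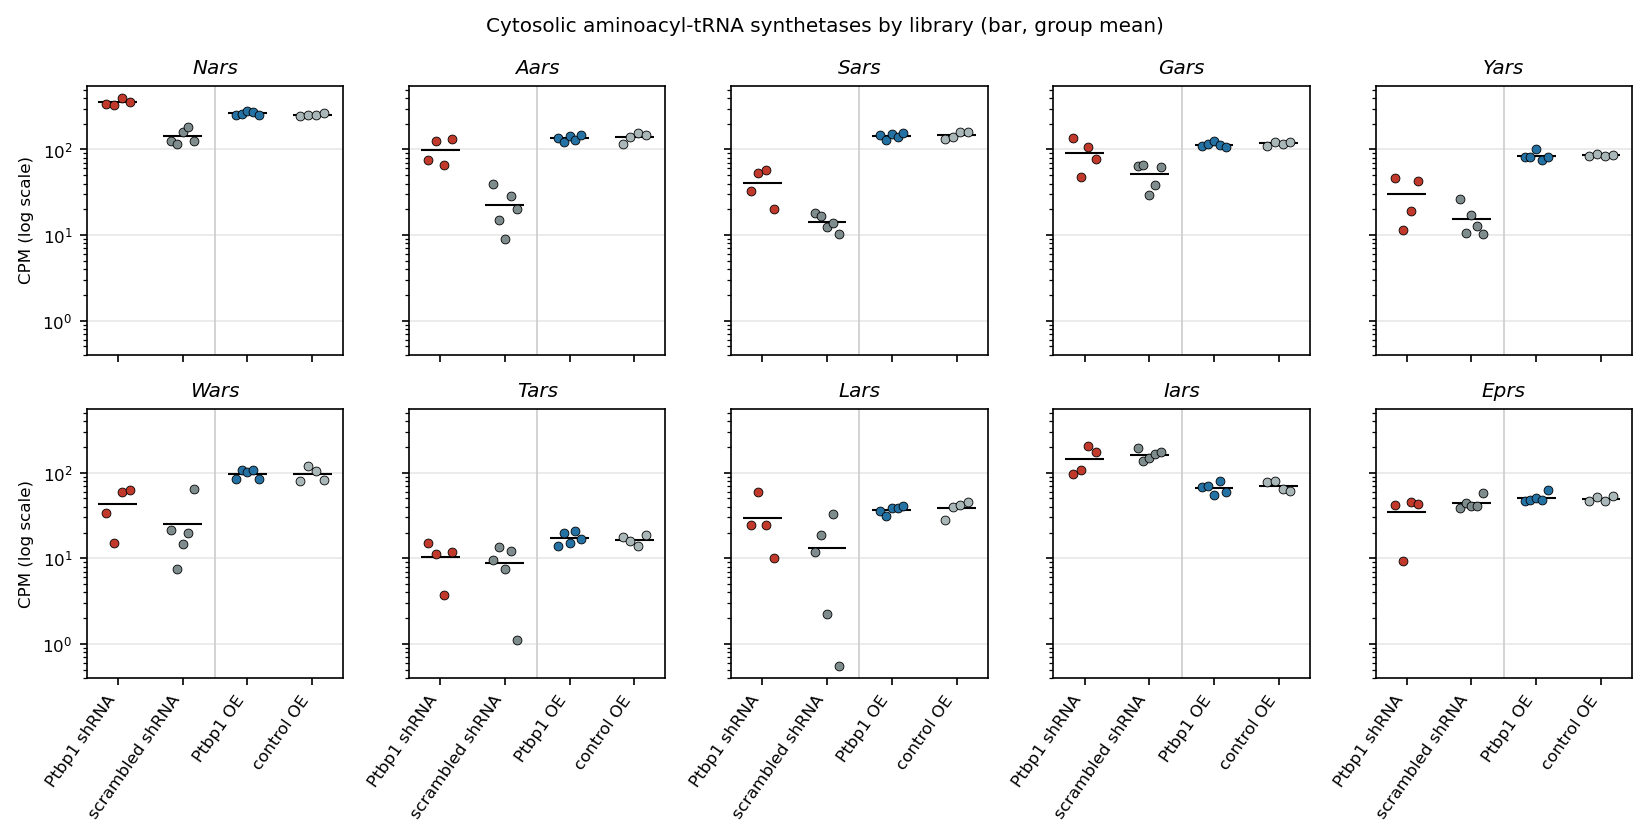
Level of each of the 10 synthetase genes in every library (y axis, TMM-scaled CPM on a log scale) in the Ptbp1 shRNA, scrambled shRNA, Ptbp1 overexpression (OE) and control vector groups, with 1 point per mouse and a bar at the group mean. Nars, Aars and Sars have every Ptbp1 shRNA point above every scrambled shRNA point, and the points of both overexpression experiment groups overlap for every gene.

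The other free synthetases were higher on average with the Ptbp1 shRNA, with overlapping groups. Gars, which charges glycine in both cytosol and mitochondria, had 135, 48.2, 106 and 77.9 CPM with the Ptbp1 shRNA and 63.9, 66.6, 29.4, 38.1 and 62.5 CPM with the scrambled shRNA. In Gars 3 of the 4 Ptbp1 shRNA libraries were above all scrambled shRNA libraries and replicate 2 was inside their range (log2 fold change 0.81, SE 0.36, interval 0.03 to 1.60). Yars, which charges tyrosine, had 47, 11.4, 19.1 and 43.3 CPM with the Ptbp1 shRNA and 26.6, 10.6, 17.1, 12.6 and 10.2 CPM with the scrambled shRNA. In Yars 2 of 4 Ptbp1 shRNA libraries were above the scrambled shRNA range (0.97, SE 0.52, interval -0.17 to 2.10).

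Wars, which charges tryptophan and is an interferon-induced gene, had 34.1, 15.1, 59.5 and 62.4 CPM with the Ptbp1 shRNA and 21.3, 7.49, 14.5, 19.6 and 63.7 CPM with the scrambled shRNA. The highest library of all 9 was scrambled shRNA replicate 5, one of the 2 libraries with many empty exon bins, and the log2 fold change was 0.76 (SE 0.60), and 1.44 without that library. Tars, which charges threonine, had 15.1, 11.2, 3.73 and 11.9 CPM with the Ptbp1 shRNA and 9.65, 13.5, 7.46, 12.3 and 1.1 CPM with the scrambled shRNA. Its log2 fold change of 0.26 (SE 0.73) became -0.03 without scrambled shRNA replicate 5.

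The 3 complex-bound members did not share a direction. Eprs, the bifunctional enzyme for glutamate and proline, had 42.2, 9.26, 45.8 and 43.3 CPM with the Ptbp1 shRNA and 38.3, 43.7, 41.3, 40.6 and 57.2 CPM with the scrambled shRNA. The log2 fold change of Eprs was -0.33 (SE 0.44) with Ptbp1 shRNA replicate 2 and -0.02 without it. Iars, which charges isoleucine, had 96.9, 107, 205 and 177 CPM with the Ptbp1 shRNA and 193, 138, 147, 164 and 173 CPM with the scrambled shRNA. The scrambled shRNA values of Iars lie inside the Ptbp1 shRNA range, and its log2 fold change was -0.15 (SE 0.27) and 0.000328 without Ptbp1 shRNA replicate 1.

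Lars, the leucyl enzyme, which has also been described as a leucine sensor for mTORC1, had 24.2, 59.3, 24.7 and 9.99 CPM with the Ptbp1 shRNA and 11.9, 18.5, 2.23, 32.8 and 0.551 CPM with the scrambled shRNA. The scrambled shRNA values of Lars had the highest CV of the 10 genes, 99.8%, with 17 counts in replicate 5, and the log2 fold change of 1.16 had an SE of 0.89. It was 0.56 without Ptbp1 shRNA replicate 2 and 1.83 without scrambled shRNA replicate 4. Grouped by complex membership, a grouping made after the values were seen, 7 of 7 free and 1 of 3 complex-bound members were higher, with median log2 fold changes of 0.97 and -0.15. Among the 11 other cytosolic synthetases, 3 of 5 free ones and 4 of 5 complex-bound ones had a positive log2 fold change, and Tarsl2, which was not grouped, a negative one. The difference between free and complex-bound enzymes was not tested.

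By the edgeR fit over all genes, 0 of the 10 members were called at an adjusted p of 0.05, and neither was any other gene of the silencing contrast (0% of 14656). At an unadjusted p under 0.05, 4 members were higher and 0 lower, beside 5.76% and 5.42% of all genes. With DESeq2 as the tool 3 members were called, among 705 genes, and with limma voom 2 members, among 69 of the same 14656 genes. The number of genes that DESeq2 tested was not counted, so no share stands beside its calls. The rule that chose the genes had used this contrast, and nothing is read from these counts. Without the 2 libraries with the most empty exon bins, 8 of 10 members were higher, the median was 1.11, and 5 genes did not overlap instead of 3, Gars and Wars being the added ones. Smaller groups separate more easily by themselves, and the share of all genes without overlap in this subset was not counted. The count of 5 is therefore not read as a stronger pattern. Eprs (0.10) was then among the higher members and Tars (-0.06) was not, and Lars was at 0.26. The share of counts from mitochondrial genes was 0.527% to 0.949% in Ptbp1 shRNA and 0.184% to 0.537% in scrambled shRNA libraries. Its part in the synthetase levels, and that of the lower sum of excitatory neuron markers, was not tested, and in bulk RNA fewer cells of a type and less RNA per cell cannot be told apart.

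**Figure D2:**
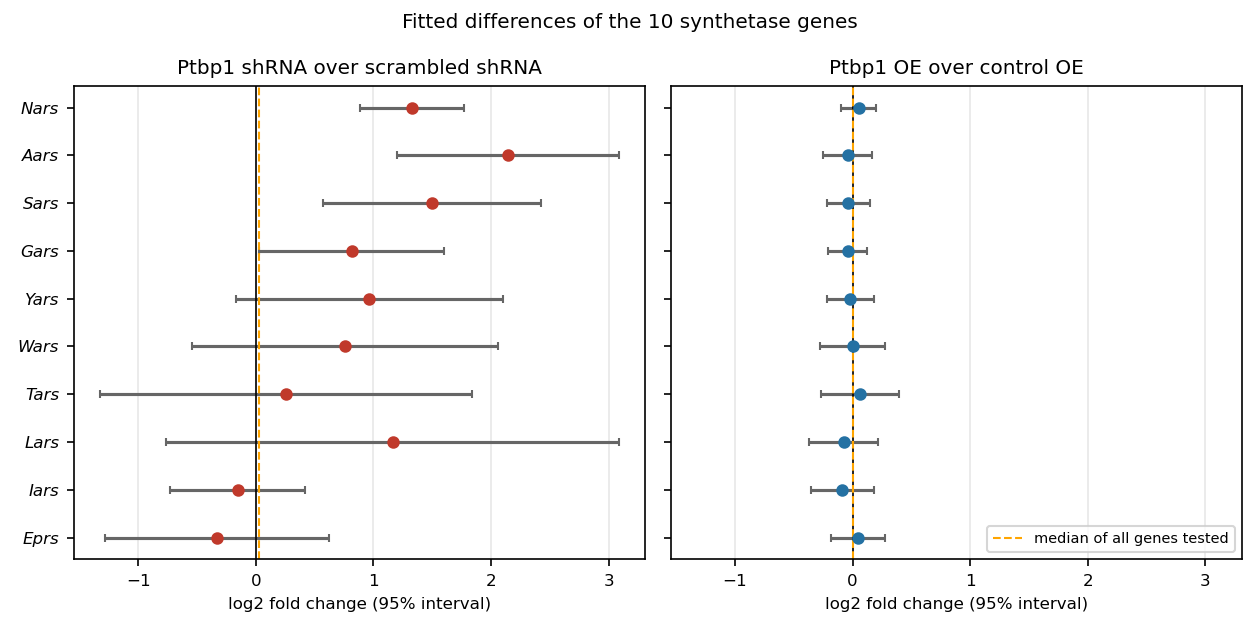
Fitted log2 fold change of each synthetase gene (x axis; points, with bars for the 95% interval of the edgeR fit) for the Ptbp1 shRNA over the scrambled shRNA and for Ptbp1 overexpression over the control vector, with the median of all genes tested as a dashed line. The silencing values run between -0.33 and 2.15 with wide intervals, and the overexpression intervals are all between -0.37 and 0.39 and include 0.

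In the overexpression experiment no synthetase differed detectably between the groups. The summed level was 1010 ± 34.1 CPM with the Ptbp1 vector (975 to 1060, SD, n = 5) and 1020 ± 49.9 CPM with the control vector (944 to 1050, n = 4). Of the 10 genes 4 were higher and 6 lower, with log2 fold changes between -0.09 and 0.06 and a median of -0.03, against -8.02e-05 over the 16480 genes tested. With the share of empty exon bins as a covariate 8 of the 10 were higher, with a median of 0.02. All 10 of the 95% intervals included 0, and over the 10 genes the intervals reached no lower than -0.37 and no higher than 0.39. None of the 10 was called by edgeR or by DESeq2, where edgeR called 7 of 16480 genes (0.0425%, and 0.0364% as higher). An unadjusted p under 0.05 was reached by 0 of 10 members and by 4.78% of all genes, 2.79% higher and 1.99% lower. No member separated the groups, where 1.13% of all genes did so with the Ptbp1 vector higher and 0.686% with it lower.

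Nars had 253, 263, 282, 273 and 251 CPM with the Ptbp1 vector and 247, 252, 256 and 266 CPM with the control vector. In Nars 3 of the 5 Ptbp1 vector libraries lay above the control mean, and the log2 fold change was 0.05 (SE 0.07, interval -0.10 to 0.20). Aars had 135, 121, 143, 130 and 148 CPM with the Ptbp1 vector and 116, 138, 154 and 148 CPM with the control vector. The Aars values of the Ptbp1 vector lay inside the control range (log2 fold change -0.04, interval -0.25 to 0.17). Sars had 146, 129, 152, 140 and 154 CPM with the Ptbp1 vector and 134, 139, 160 and 158 CPM with the control vector, again with overlapping groups (-0.04, interval -0.22 to 0.15). Lars had 35.8, 31.2, 38.6, 39.2 and 40.8 CPM with the Ptbp1 vector and 28.2, 40.3, 42.2 and 45.7 CPM with the control vector (-0.07, interval -0.37 to 0.22).

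The largest difference in either direction was that of Iars, which had 67.9, 70.8, 55.4, 79.7 and 59 CPM with the Ptbp1 vector and 78.7, 79.5, 63.8 and 60.6 CPM with the control vector (-0.09, interval -0.35 to 0.18). Tars had the highest log2 fold change, 0.06 (interval -0.27 to 0.39), at 17.3 ± 3.08 CPM with the Ptbp1 vector and 16.5 ± 2.14 CPM with the control vector (SD, n = 5 and 4). Gars was at 114 ± 6.45 CPM with the Ptbp1 vector and 118 ± 5.41 CPM with the control vector. Wars was at 97.4 ± 11.9 CPM with the Ptbp1 vector and 97.2 ± 18.8 CPM with the control vector. The groups also overlapped in Yars, which was at 84.5 ± 9.83 CPM with the Ptbp1 vector and 85.6 ± 2.79 CPM with the control vector. Eprs was at 51.2 ± 6.74 CPM with the Ptbp1 vector and 49.7 ± 3.27 CPM with the control vector. The CV within a group was 5.03% to 17.8% with the Ptbp1 vector and 3.09% to 19.5% with the control vector. In the silencing experiment it was 7.82% to 71.1% with the Ptbp1 shRNA and 13.3% to 99.8% with the scrambled shRNA. For the same genes, the standard error of the log2 fold change was 0.21 to 0.89 in silencing and 0.07 to 0.15 in overexpression.

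Levels of different genes were compared per kilobase of exonic length. Nars was the highest of the 10 in all 4 groups, at 133 ± 10.4 CPM per kilobase with the Ptbp1 shRNA, 53 ± 10.7 with the scrambled shRNA, 98.5 ± 4.95 with the Ptbp1 vector and 95 ± 2.94 with the control vector. Its values did not overlap those of the next gene in any group. Tars was the lowest in all 4 groups, at 2.62 ± 1.2 CPM per kilobase with the Ptbp1 shRNA, 2.19 ± 1.22 with the scrambled shRNA, 4.31 ± 0.77 with the Ptbp1 vector and 4.13 ± 0.536 with the control vector. By coding length Lars, not Tars, was the lowest in the scrambled shRNA group, and Nars was again the highest in all groups.

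By exonic length, Nars was followed in both groups of the overexpression experiment by Gars, Sars and Wars. Gars was at 48 ± 2.71 with the Ptbp1 vector and 49.4 ± 2.27 CPM per kilobase with the control vector, and no library of Gars overlapped one of Sars within a group. By coding length this order was reversed, again without overlap, with Sars at 89.6 ± 6.29 with the Ptbp1 vector and 91.8 ± 8.02 with the control vector, and Gars, then in rank 4 behind Wars, at 52.2 ± 2.95 with the Ptbp1 vector and 53.8 ± 2.48 with the control vector. By exonic length Sars was at 39.4 ± 2.77 with the Ptbp1 vector and 40.4 ± 3.53 with the control vector, and Wars at 28.3 ± 3.46 with the Ptbp1 vector and 28.2 ± 5.45 with the control vector. Aars, Yars and Iars came next, with group means of 12.6 to 15 CPM per kilobase and overlapping libraries, and then Eprs and Lars, with means of 9.33 to 10.4. In the silencing experiment 7 of 9 neighbouring pairs in the order overlapped in each group. Iars had rank 3 with the Ptbp1 shRNA (27.8 ± 10) and rank 2 with the scrambled shRNA (30.9 ± 4.1). Aars had rank 6 with the Ptbp1 shRNA (10.7 ± 3.68) and rank 9 with the scrambled shRNA (2.42 ± 1.3), within a run of overlapping neighbours.

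The experiments were normalized separately, and the experiment and the quality of its libraries cannot be told apart, so levels across them are set side by side without a test. Sars averaged 40.5 CPM with the Ptbp1 shRNA and 14.3 CPM with the scrambled shRNA, and 144 CPM with the Ptbp1 vector and 148 CPM with the control vector. Aars was at 99.2 CPM with the Ptbp1 shRNA and 22.4 CPM with the scrambled shRNA, and at 135 CPM with the Ptbp1 vector and 139 CPM with the control vector. For Iars the silencing libraries held the higher values, 146 CPM with the Ptbp1 shRNA and 163 CPM with the scrambled shRNA, and the overexpression experiment 66.6 CPM with the Ptbp1 vector and 70.7 CPM with the control vector. For Nars the scrambled shRNA libraries (142 ± 28.9 CPM) lay below and the Ptbp1 shRNA libraries (358 ± 28 CPM) above the control vector libraries (255 ± 7.89 CPM).

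Exon bins, the numbered stretches of a flattened gene annotation, gave a measure that the choice of genes did not use: the share of a gene's counts that falls in each bin. Of 278 bins in the 10 genes, 166 could be tested in the silencing and 212 in the overexpression experiment. The 278 include 31 bins under an identifier that Yars shares with another gene, some of which may belong to that gene. By edgeR's diffSpliceDGE 0 member bins were called in either experiment, where 1 of 83164 bins (0.0012%) and 40 of 117580 bins (0.034%) were called in all genes. An unadjusted p under 0.05 was reached by 6 of the 166 member bins in silencing, beside 1.96% of all bins, and by 5 of the 212 in overexpression, beside 1.37% of all bins, and limma's diffSplice also called 0 in both. No change in exon usage of the synthetases was detectable.

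The counts along Nars show how far the silencing difference extends over the transcript. All 15 Nars bins had a higher mean with the Ptbp1 shRNA, and in 12 of them the groups did not overlap. Bins hold the same reads as the gene counts by which the genes were chosen, so these counts are a description. Of all 56285 bins with a mean count of at least 50, 1.24% had no overlap with the Ptbp1 shRNA higher. The bin at the 3′ end had 98.1, 96.5, 110 and 85.1 CPM with the Ptbp1 shRNA and 36.6, 26.5, 51.5, 54.8 and 40.6 with the scrambled shRNA. The share of the gene's counts differed most in a pair of neighbouring bins in the middle of the transcript, bins 6 and 7 counted from the 3′ end. Bin 6 held 8.74% ± 2.82 of the Nars bin counts with the Ptbp1 shRNA and 3.75% ± 1.8 with the scrambled shRNA (SD, n = 4 and 5), and bin 7 held 9.34% ± 3.11 with the Ptbp1 shRNA and 4.13% ± 1.62 with the scrambled shRNA. Both are among the 6 bins that passed only without adjustment. In the overexpression experiment bin 6 held 8.78% ± 0.59 with the Ptbp1 vector and 8.53% ± 0.796 with the control vector.

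**Figure D3:**
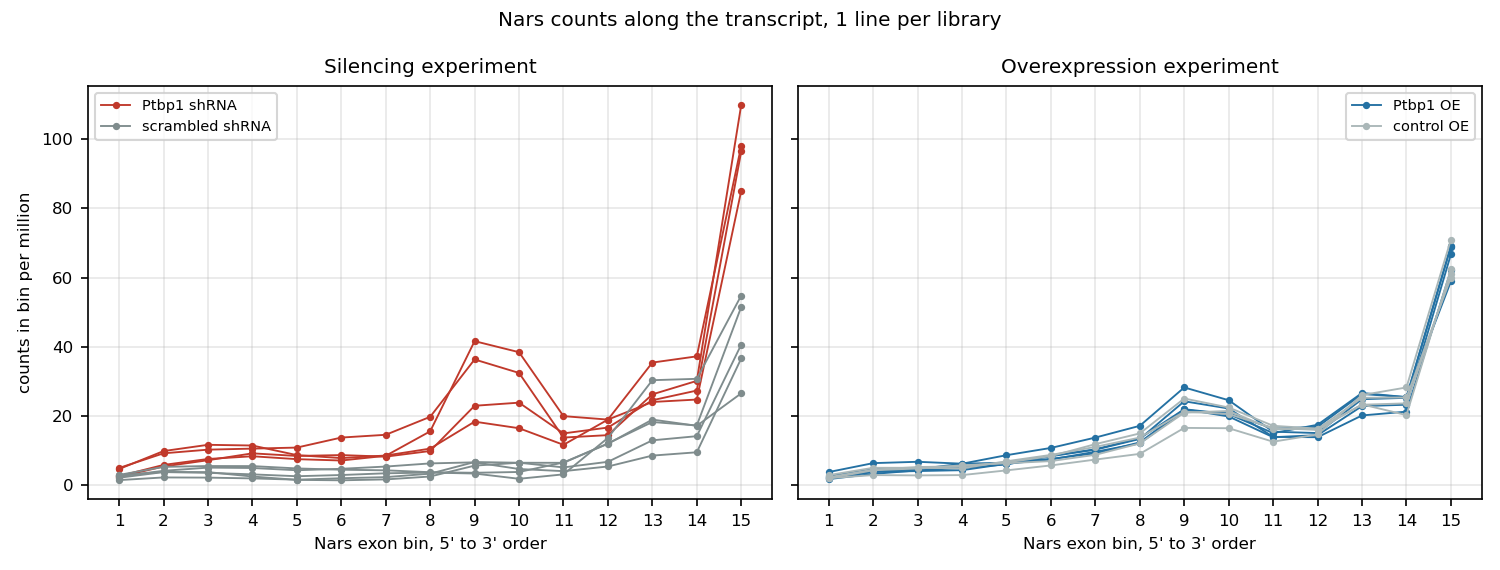
CPM in each Nars exon bin (y axis) in transcript order from the 5′ to the 3′ end (x axis), with 1 line per library. The Ptbp1 shRNA lines lie above the scrambled shRNA lines in 12 of 15 bins, and the Ptbp1 overexpression (OE) and control vector lines run together along the whole transcript.

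Over all 10 genes, 110 bins had a mean count of at least 50. Of these, 87 had a higher mean with the Ptbp1 shRNA, where 47.2% of all such bins had, and 51 with the Ptbp1 vector, where 44.1% had, each against its own control. The first count restates the gene levels that were known when the genes were chosen. All 15 such bins of Gars and all 15 of Sars were higher with the Ptbp1 shRNA, as were 13 of 14 in Aars, 9 of 11 in Wars, 7 of 7 in Yars and 5 of 5 in Lars. The 7 Yars bins carry the shared identifier, so they and the 110 may include bins of the other gene. In Iars 3 of 15 and in Eprs 4 of 12 were higher. Across these bins, 54 of 990 bin and library pairs (5.45%) were at 0 in the silencing experiment and 0 of 990 in the overexpression experiment. With the Ptbp1 vector, bin 4 of Sars (numbered along the chromosome, 72 bases of coding sequence, chr3:108427861-108427932) had a share of 2.21% ± 0.366, against 3.25% ± 0.412 with the control vector. A run of 3 neighbouring coding bins of Iars (numbers 13 to 15, within chr13:49702488-49704393) also had lower shares with the Ptbp1 vector, of which bin 13 held 0.324% ± 0.12 against 0.744% ± 0.202 with the control vector. The whole Iars gene had 1147 to 2787 counts per library in this experiment, so the shares of bin 13 rest on few reads. None of these 4 bins passed the adjustment over all bins.

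Other genes of tRNA charging were described from lists chosen by function. These lists and those described after them were chosen with earlier results of these data known, so their counts are a description. Of the 11 other cytosolic synthetases, 7 were higher and 4 lower with the Ptbp1 shRNA, with a median of 0.45, and 0 were called. Of these Vars, the valyl enzyme that binds elongation factor 1, was the only one with an unadjusted p under 0.05, and its groups did not overlap. Of all genes, 5.76% were higher at that p, and 2.39% had no overlap with the Ptbp1 shRNA higher. Vars had 4.53 to 25.7 CPM with the Ptbp1 shRNA and 0.0477 to 0.885 CPM with the scrambled shRNA, a log2 fold change of 4.47 (SE 1.06, edgeR adjusted p = 0.144). In the overexpression experiment it had 10.9 to 15.6 CPM with the Ptbp1 vector and 10.1 to 12.9 CPM with the control vector. Farsb, a subunit of the phenylalanyl enzyme, was at 68 ± 12 CPM with the Ptbp1 shRNA and 98.7 ± 20.5 CPM with the scrambled shRNA (-0.54, adjusted p = 0.483), and Cars, the cysteinyl enzyme, at 23.4 ± 17.5 CPM with the Ptbp1 shRNA and 8.32 ± 7.78 CPM with the scrambled shRNA (1.49, adjusted p = 0.57).

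With the Ptbp1 vector 6 of these 11 were higher and 5 lower, with a median of 0.06, 0 of them were called by edgeR, and 0 had an unadjusted p under 0.05. Farsa, the other subunit of the phenylalanyl enzyme, had the smallest p at 15.5 ± 2.02 CPM with the Ptbp1 vector and 13.4 ± 2.34 CPM with the control vector (0.21, adjusted p = 0.974). Dars, for aspartate, was at 34.1 ± 2.3 CPM with the Ptbp1 vector and 31.3 ± 1.83 CPM with the control vector. Tarsl2, a threonyl-tRNA synthetase paralog, was at 41.3 ± 5.68 CPM with the Ptbp1 vector and 45.8 ± 5.68 CPM with the control vector, and both had an edgeR adjusted p of 0.974. The scaffolds of the complex, Aimp1, Aimp2 and Eef1e1, had a median log2 fold change of 0.03 with the Ptbp1 shRNA and 0.11 with the Ptbp1 vector, and 0 of 3 were called in either. Aimp1 was at 22.8 ± 11.6 CPM with the Ptbp1 shRNA and 11.3 ± 8.86 CPM with the scrambled shRNA (edgeR adjusted p = 0.646), while Aimp2 and Eef1e1 had log2 fold changes of 0.01 and 0.03. With the Ptbp1 vector the log2 fold changes were 0.20 for Aimp2, 0.11 for Eef1e1 and 0.05 for Aimp1.

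Of the 17 mitochondrial synthetases, 16 were tested in silencing, where 11 were higher and 5 lower with a median of 0.88. None was called, with 3 higher and 1 lower at an unadjusted p under 0.05, beside 5.76% and 5.42% of all genes. Iars2, the mitochondrial isoleucyl enzyme, had 72.4 to 112 CPM with the Ptbp1 shRNA and 30.9 to 71.5 CPM with the scrambled shRNA (0.96, SE 0.32, adjusted p = 0.267). Wars2, the mitochondrial tryptophanyl enzyme, was lower, with 0 to 0.366 CPM with the Ptbp1 shRNA and 2.4 to 27.3 CPM with the scrambled shRNA (adjusted p = 0.169). Lars2 was at 1650 ± 650 CPM with the Ptbp1 shRNA and 1060 ± 311 CPM with the scrambled shRNA (0.64, edgeR adjusted p = 0.419). In the overexpression experiment it was at 8650 ± 1880 CPM with the Ptbp1 vector and 8160 ± 2610 CPM with the control vector. These levels were far above those of every other mitochondrial synthetase in both experiments, and whether all these reads come from the enzyme's mRNA was not tested. With the Ptbp1 vector 9 of 17 were higher, with a median of 0.03. Fars2, the mitochondrial phenylalanyl enzyme, had 18.3 to 28.7 CPM with the Ptbp1 vector and 11.8 to 16.9 CPM with the control vector, without overlap (0.62, SE 0.16, adjusted p = 0.541). Next by p were Mars2, for methionine, at 6.28 ± 0.719 CPM with the Ptbp1 vector and 7.72 ± 1.48 CPM with the control vector, and Iars2 at 48.7 ± 7.44 CPM with the Ptbp1 vector and 56 ± 5.27 CPM with the control vector, both with an edgeR adjusted p of 0.974.

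Genes of amino acid supply and of the ATF4 pathway were mostly higher in silencing, without a called gene. Of 18 amino acid supply genes tested, 16 were higher with the Ptbp1 shRNA, with a median of 1.30, 8 higher at an unadjusted p under 0.05 (5.76% of all genes were) and 0 called. Nothing is read from the counts of this list and the next, since both were chosen with earlier results of these data known. Shmt2, the mitochondrial serine hydroxymethyltransferase, had 21.7 to 42.5 CPM with the Ptbp1 shRNA and 0.519 to 6.54 CPM with the scrambled shRNA (3.41, SE 0.76, adjusted p = 0.125). Slc1a4, a neutral amino acid transporter, had 12.3 to 46.7 CPM with the Ptbp1 shRNA and 0.746 to 8.94 CPM with the scrambled shRNA (2.28, SE 0.70, adjusted p = 0.237). Of 12 regulators of the pathway tested, 11 were higher, with a median of 1.14, 5 higher at an unadjusted p under 0.05 (again beside 5.76% of all genes) and 0 called. Trib3, Nupr1 and Stc2 did not pass the filter on low counts. Atf3, a stress-induced transcription factor, had 4.96 to 27.3 CPM with the Ptbp1 shRNA and at most 0.153 CPM with the scrambled shRNA (edgeR adjusted p = 0.0625). Atf3 thus passed the filter on low counts only through the Ptbp1 shRNA group, so the filter set its direction in advance. How many other listed genes near 0 in 1 group passed in this way was not counted. Chac1, which degrades glutathione, had 12.2 to 16.6 CPM with the Ptbp1 shRNA and 1.55 to 4.42 CPM with the scrambled shRNA (2.32, SE 0.63, adjusted p = 0.192).

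Lists of other functions differed in direction in silencing. The 24 translation factors had 13 higher and 11 lower, with a median of 0.02. Among them Eif4b, a helicase cofactor in initiation, was at 201 ± 71.8 CPM with the Ptbp1 shRNA and 103 ± 14 CPM with the scrambled shRNA (adjusted p = 0.198), and Eif2s1, the alpha subunit of eIF2, at 105 ± 20.5 CPM with the Ptbp1 shRNA and 159 ± 23.3 CPM with the scrambled shRNA (adjusted p = 0.361). The 4 eIF2 kinases were divided, 2 higher and 2 lower (median -0.04). Eif2ak2, the double-stranded RNA sensor PKR, was at 6.29 ± 4.22 CPM with the Ptbp1 shRNA and 20.1 ± 15.1 CPM with the scrambled shRNA (adjusted p = 0.481), and Eif2ak3, the endoplasmic reticulum kinase PERK, at 11.3 ± 8.12 CPM with the Ptbp1 shRNA and 7.47 ± 8.32 CPM with the scrambled shRNA (adjusted p = 0.88). Of 12 endoplasmic reticulum chaperone genes 10 were higher, with a median of 0.33, and Dnajb9 was at 243 ± 58 CPM with the Ptbp1 shRNA and 102 ± 41.8 CPM with the scrambled shRNA (adjusted p = 0.192). Hspa5, the chaperone BiP, was at 123 ± 42.3 CPM with the Ptbp1 shRNA and 63.8 ± 27.2 CPM with the scrambled shRNA (adjusted p = 0.34). Of 12 p53 targets, genes with no known part in tRNA charging, 11 were higher, with a median of 1.01. Among them Cdkn1a, a cell cycle inhibitor, had 61 to 255 CPM with the Ptbp1 shRNA and 11.7 to 28.4 CPM with the scrambled shRNA (edgeR adjusted p = 0.0625), and Zmat3, an RNA-binding protein, 1030 to 2320 CPM with the Ptbp1 shRNA and 537 to 924 CPM with the scrambled shRNA (adjusted p = 0.127). All 7 excitatory neuron markers were lower with the Ptbp1 shRNA (median -0.32), among them Camk2a at 1470 ± 551 CPM with the Ptbp1 shRNA and 2720 ± 715 CPM with the scrambled shRNA (adjusted p = 0.237). Markers of other cell types were mostly lower too, with 5 of 6 interneuron markers (median -0.57), 4 of 6 astrocyte markers (-0.69) and 4 of 4 oligodendrocyte markers (-0.20) tested. Of 7 microglia markers only 2 were tested, both lower (median -3.13), and of 6 vessel markers only 1, which was higher (0.47). None of the genes in these lists was called by edgeR in silencing.

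**Figure D4:**
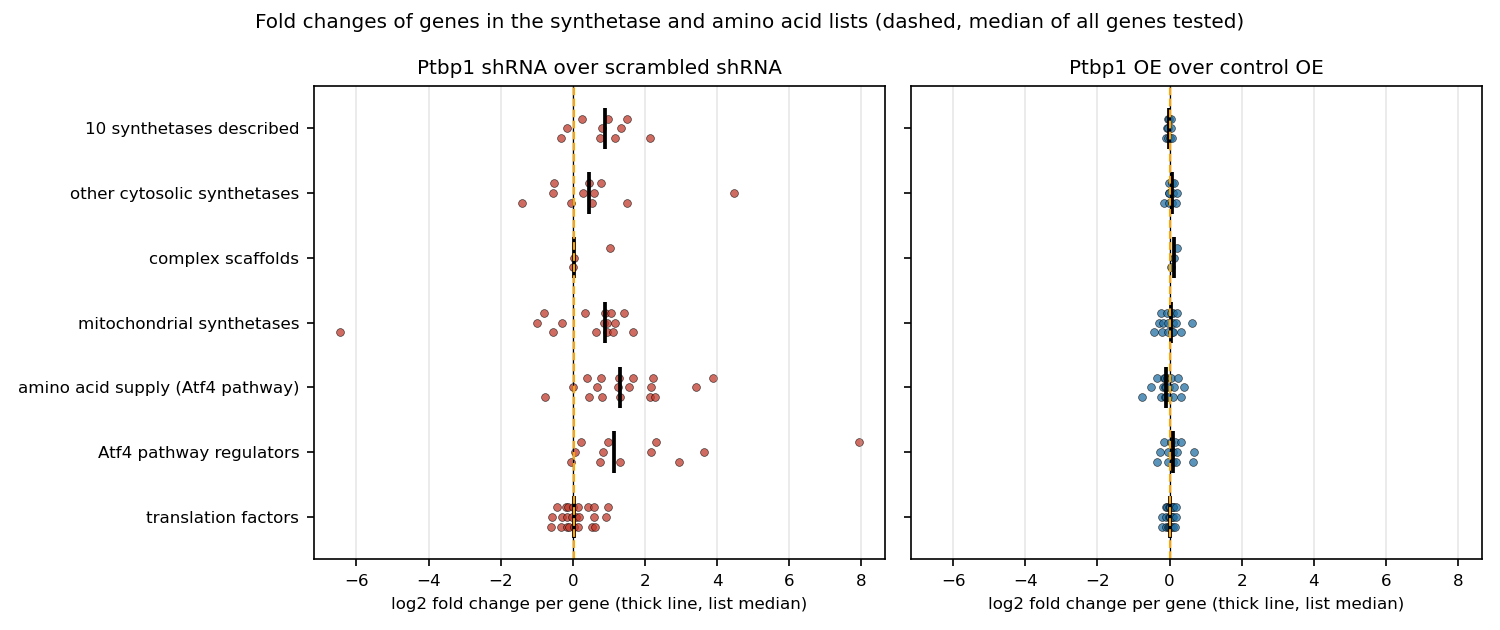
Log2 fold change of every tested gene (points; x axis) in 7 lists, with the list median as a thick line and the median of all genes as a dashed line, for the Ptbp1 shRNA over the scrambled shRNA and for Ptbp1 overexpression over the control vector. The medians of the synthetase, amino acid supply and Atf4 regulator lists in silencing are 0.89, 1.30 and 1.14, and all list medians in overexpression are between -0.10 and 0.11.

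In the overexpression experiment none of these lists held a called gene. Of 20 amino acid supply genes 6 were higher and 14 lower with the Ptbp1 vector, with a median of -0.10. At an unadjusted p under 0.05, 3 of them were lower, beside 1.99% of all genes. They include Got1 at 445 ± 32.5 CPM with the Ptbp1 vector and 529 ± 36.3 CPM with the control vector (edgeR adjusted p = 0.779). Phgdh, the first enzyme of serine synthesis, was at 1.61 ± 0.567 CPM with the Ptbp1 vector and 2.74 ± 0.378 CPM with the control vector (adjusted p = 0.974). Sesn2, a stress-induced inhibitor of mTORC1, was at 9.16 ± 2.22 CPM with the Ptbp1 vector and 5.75 ± 1.33 CPM with the control vector (0.67, adjusted p = 0.79), and Ppp1r15a, the stress-induced eIF2 phosphatase subunit, at 5.09 ± 0.748 CPM with the Ptbp1 vector and 6.51 ± 1.19 CPM with the control vector (-0.35, adjusted p = 0.974). Eif2ak2 was at 10.8 ± 4.22 CPM with the Ptbp1 vector and 5.12 ± 1.44 CPM with the control vector (1.07, adjusted p = 0.678). Next by p among the kinases was Eif2ak4, the amino acid sensor GCN2, at 15.8 ± 1.36 CPM with the Ptbp1 vector and 14.1 ± 2.99 CPM with the control vector. Among the chaperone genes Hyou1 (-0.30) and Creld2 (0.41) had the smallest p, and among the translation factors Eif2s1 (-0.21) and Eif2b1 (-0.22), all with an edgeR adjusted p of 0.974. Of the 12 p53 targets 9 were higher with the Ptbp1 vector, with Cdkn1a at 64.9 to 82.1 CPM with the Ptbp1 vector and 51.7 to 64.4 CPM with the control vector (0.36, adjusted p = 0.678), and Phlda3 at 0.47 (adjusted p = 0.974). The median of the 14 regulators was 0.09. Excitatory neuron markers were mostly lower here too, 5 of 7 with a median of -0.14, among them Snap25 (-0.31, edgeR adjusted p = 0.779). Calb1 (0.30) and Neurod6 (0.15) were higher. Other cell types did not share that direction. Of 7 microglia markers 3 were tested and all were higher (median 1.07), at summed levels of 7.31 to 11.6 CPM with the Ptbp1 vector and 5.9 to 8.57 CPM with the control vector. Medians were 0.03 for interneuron, -0.13 for astrocyte, 0.14 for oligodendrocyte and 0.10 for vessel markers.

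The 6 genes whose profile was most like the mean of the 10 synthetases over the 18 libraries, after each experiment's mean was subtracted, were Chd4, Rad54l2, Upf2, Tmem129, Atf5 and Polr3d among 11775 genes ranked. Their Pearson correlations with the synthetase mean were 0.927, 0.924, 0.918, 0.91, 0.907 and 0.898 on the log2(CPM + 0.5) scale. Within the 9 silencing libraries alone r was 0.912 to 0.96. Within the 9 overexpression libraries it ran from -0.701 for Atf5 to 0.505 for Tmem129, so Atf5 did not follow the synthetase mean there. The libraries compared share their treatment groups. Chd4, a chromatin remodeler, was at 86.2 ± 16.8 CPM with the Ptbp1 shRNA and 51.3 ± 17.6 CPM with the scrambled shRNA, and at 101 ± 11.2 CPM with the Ptbp1 vector and 97 ± 4.76 CPM with the control vector. Atf5, a transcription factor of the same stress pathway as ATF4, was at 5.79 ± 2.77 CPM with the Ptbp1 shRNA and 0.752 ± 0.504 CPM with the scrambled shRNA, and at 25.5 ± 2.99 CPM with the Ptbp1 vector and 26.4 ± 2.36 CPM with the control vector. Among the members themselves, the 45 pairs had a median Pearson r of 0.245 over the 9 silencing libraries and 0.14 over the 9 overexpression libraries, with 30 pairs above 0 in silencing and 29 in overexpression.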

How the data were processed

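The authors deposited raw counts per Ensembl gene for each experiment and raw counts per exon bin for each library. The tools listed in the submitters' processing notes are HTSeq and STAR 2.5.3a, with build mm10. Neither their roles nor the annotation and strand setting were stated in the sources used here, and some members overlap genes on the opposite strand (Wars with Wdr25, Yars with C77080) whose reads could have been mixed with theirs. The 5 lines of each exon file that name no bin were left out.

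Groups came from the treatment labels. Each experiment was fitted alone over all genes with edgeR 4.0.16 in R 4.3.3 (filterByExpr, TMM scaling, robust quasi-likelihood test, Benjamini-Hochberg adjustment at 0.05). The SE was taken from the F statistic (absolute log2 fold change over its root), and 95% intervals from the t quantile of the fit. For exon usage, diffSpliceDGE was used. The scripts were tested on simulated data. Symbols, lengths and bin positions came from GENCODE release M21, which uses the same build, and promoter windows from RefSeq, of which 1 match is not reported here. Rebuilt bins were not used for Yars, whose bins share an identifier with another gene. Ptbp1 was compared by an exact permutation test on log2(CPM + 0.5).

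The 10 genes and all lists were chosen with earlier results of these data known. Genes were named from a rule: Ptbp1, the 10 genes, the 3 smallest p-values of each synthetase or scaffold list, the 2 smallest of each other list, and the 6 most alike genes, whose mean log2 CPM had to reach 1 in both experiments. Alternatives were DESeq2 1.42.0, limma 3.58.1, other scalings and filters, a quality covariate, sums of exon bins, and leaving out libraries. The labels do not say whether the mice of a group differed in litter or batch, so p-values measure only the spread between these libraries.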

Additional observations from a re-analysis of the deposited data

Results flagged for a closer look

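In 3 of the 44 gene and group sets tested among the synthetases and Ptbp1, 1 library lay far from the others of its group, where chance flags about 1 in 20 sets. Eprs had 9.26 CPM in Ptbp1 shRNA replicate 2, against 42.2 to 45.8 CPM in the other 3 libraries of that group. Tars had 1.1 CPM in scrambled shRNA replicate 5, against 7.46 to 13.5 CPM in the other 4. These are the libraries in which the largest shares of strong exon bins had no read, 8.3% and 7.61%. Yars had 101 CPM in Ptbp1 overexpression replicate 3, against 75.9 to 82.1 CPM in the other 4 libraries of that group. Neither experiment had a gene among these that moved one way in every library of one experiment and the opposite way in every library of the other.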

How the results depend on the processing

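No paired analysis was possible because the labels give the groups no shared replicate numbers. In silencing, the number of higher members was 7 to 9 and their median 0.76 to 1.02 when 1 library was left out, and 7 with sums of exon bins and 8 under each other alternative, with medians of 0.88 to 1.14. The number of called genes depended on the tool: 0 by edgeR, 705 by DESeq2, 69 by limma voom, 1775 in one fit over all 18 libraries, 11 without a filter, 8 with the share of empty strong bins as covariate, and 0 to 5 with 1 library left out. Of the members, DESeq2 called 3, limma voom 2, the joint fit 3, and the fits without a filter and with the covariate 1 each, with 0 when 1 library was left out. The number of genes tested differed between some of these alternatives and was not counted for each, so no share stands beside these calls. Genes of the other lists called were 16, 5, 33 and 1 by DESeq2, limma voom, the joint fit and without a filter, and 0 to 1 with 1 library left out. The members without overlap numbered 3 to 4 with 1 library left out and 5 without the 2 libraries with the most empty bins. Smaller groups separate more easily, and the share of all genes without overlap was not counted in these subsets. In overexpression, DESeq2 called 39 genes and the joint fit 0, while the number of higher members was 8 instead of 4 with the covariate, and 3 to 4 with 1 library left out. The called genes then ranged from 6 to 9. Member exon bins called were 0 under every alternative run. The causes of these differences were not tested.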
